A study of Homo sapiens with 208 samples.

Results

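The core circadian clock genes followed here are PER1, PER2, PER3, CRY1, CRY2, CLOCK, BMAL1 (older symbol ARNTL), NR1D1, NR1D2 and DBP. They were chosen by name, and a probe belonged to them when its transcript accession was that of the gene. All 10 genes had at least 1 probe, 17 probes in all, among 16961 genes with a probe, and 9 of them were among the 13276 genes tested. CRY2 was not, since its most variable probe was well above background on only 3 to 12 of the 26 arrays of a course, so CRY2 is given from its brightest probe in a fit of all 29941 detected probes one by one.

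The clock of mammalian cells is a feedback loop of transcription. CLOCK and BMAL1 form a dimer that binds E-boxes in DNA and turns on the PER and CRY genes, whose proteins return to the nucleus and hold that dimer back, and it also turns on NR1D1 and NR1D2 (REV-ERB alpha and beta), nuclear receptors that repress BMAL1, and DBP, a factor that binds D-boxes. PER1 is also known as a gene that growth factors and stress can induce within hours, and in cell lines the loop is commonly set in phase by a change of serum or medium.

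RNA was measured by 1-colour arrays in PC9, a human lung adenocarcinoma line whose EGFR kinase domain carries an activating deletion and which is sensitive to the EGFR inhibitor gefitinib, and in PC9M2, a resistant line derived from it under gefitinib. PC9M2 (PC9GRM2 in the sample labels, which also spell the drug gefinitib) is 1 line taken from refined clones without MET amplification. All groups had been starved for 48 h, and each line then ran through 4 courses, which were no treatment, 0.5 µM gefitinib given 2 h before time 0, 100 ng/ml EGF given at time 0, and both. Each course had 26 arrays at 0, 0.5 and 1 h and then hourly to 24 h, with 1 array per time point, so the paired differences between courses over the 26 time points served as the replicates of each test. These p-values measure the spread between time points, since no separate cultures are named in the labels.

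The arrays detected 24464 to 35938 features each above background, and no member probe was saturated. The epithelial markers KRT8, KRT18, KRT19, EPCAM and CDH1 were well above background on every array, and the leukocyte marker PTPRC was on 26 and the fibroblast marker COL3A1 on 6, whereas the endothelial marker PECAM1 was on 207. The lung lineage markers NAPSA and SFTPC were well above background on 207 arrays and on every array, NKX2-1 on 168 and SFTPB on 89. DUSP6, a feedback gene of the ERK pathway, was lower with gefitinib at 26 of 26 time points in both lines, by 6.80 in PC9 and by 2.17 in PC9M2 on the log2 scale. At 0.5 h in PC9M2, however, the library labelled EGF had a low DUSP6 level of 7.75 and the library labelled EGF and gefitinib a high one of 12.54, which goes against both labels. Another 7 arrays stood apart from those of their course within 3 h, at 11, 13, 14, 16 and 18 h. Each count below was also taken without those 5 time points and without 0.5 h and the calls of the tested members that changed are named beside it. The 4 treatments of a line at a time point shared a slide, but the lines shared no scan day, so that line and scan day cannot be told apart, and each scan day held about 3 consecutive hours. In bulk RNA, a lower level can come from fewer cells with a transcript or from less of it per cell, and these cannot be told apart.

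The promoters of the 5 members with the largest 24-h component in the difference between the gefitinib and untreated courses of PC9 show where E-boxes and related elements lie. Each sequence runs from 250 bases before to 50 bases after the RefSeq start of the gene (GRCh38.p14), on the strand of the gene, and the capitals mark E-boxes (CACGTG), the E-box variant CACGTT, D-box cores (TTATGNAA) and the nuclear receptor element core AGGTCA, on either strand. The PER1 window (chr17:8152355-8152654, minus strand) held an E-box at position -173 from the start, a receptor element core at -144 and a D-box core at -30. The NR1D2 window printed here (chr3:23945871-23946170, plus strand) held E-boxes at -155 and -105 and a D-box core at -194, and those of NR1D1 (chr17:40100540-40100839, minus strand), PER2 (chr2:238288561-238288860, minus strand) and CRY1 (chr12:107093500-107093799, minus strand) held the variant at -168, -197 and -89. NR1D2 had another window (chr3:23945036-23945335, plus strand), not printed, that held none of these elements.
PER1: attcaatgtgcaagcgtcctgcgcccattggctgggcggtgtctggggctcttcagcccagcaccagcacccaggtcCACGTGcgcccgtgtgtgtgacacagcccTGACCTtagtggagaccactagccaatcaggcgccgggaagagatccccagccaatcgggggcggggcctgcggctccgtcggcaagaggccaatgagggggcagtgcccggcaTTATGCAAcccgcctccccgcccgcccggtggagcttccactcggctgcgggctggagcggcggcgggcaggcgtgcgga
NR1D2: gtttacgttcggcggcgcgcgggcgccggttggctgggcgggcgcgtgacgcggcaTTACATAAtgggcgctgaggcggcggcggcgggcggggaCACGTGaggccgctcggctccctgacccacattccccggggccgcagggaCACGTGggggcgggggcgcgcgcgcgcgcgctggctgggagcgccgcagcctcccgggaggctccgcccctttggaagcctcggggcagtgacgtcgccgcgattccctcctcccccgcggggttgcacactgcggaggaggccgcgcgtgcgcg
NR1D1: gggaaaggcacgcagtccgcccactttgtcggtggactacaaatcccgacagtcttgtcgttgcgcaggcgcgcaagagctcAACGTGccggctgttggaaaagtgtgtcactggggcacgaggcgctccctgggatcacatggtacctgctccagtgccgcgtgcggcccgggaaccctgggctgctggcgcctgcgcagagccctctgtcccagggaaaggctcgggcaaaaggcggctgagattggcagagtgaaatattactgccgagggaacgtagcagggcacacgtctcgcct
PER2: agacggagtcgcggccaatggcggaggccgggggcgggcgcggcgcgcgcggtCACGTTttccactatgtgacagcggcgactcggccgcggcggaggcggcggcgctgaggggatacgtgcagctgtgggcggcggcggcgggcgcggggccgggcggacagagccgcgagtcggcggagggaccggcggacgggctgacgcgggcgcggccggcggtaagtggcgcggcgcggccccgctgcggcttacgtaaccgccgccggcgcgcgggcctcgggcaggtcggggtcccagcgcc
CRY1: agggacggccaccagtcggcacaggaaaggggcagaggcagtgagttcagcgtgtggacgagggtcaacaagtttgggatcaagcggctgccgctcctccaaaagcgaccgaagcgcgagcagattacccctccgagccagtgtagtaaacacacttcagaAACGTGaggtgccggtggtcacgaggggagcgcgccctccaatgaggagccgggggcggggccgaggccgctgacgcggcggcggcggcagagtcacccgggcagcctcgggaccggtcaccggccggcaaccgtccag

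The 10 genes had 15 promoters in the table. The E-box was in 2 of the 15 (PER1 and NR1D2) and in 7.26% of all 35116 promoters of the same length, and the variant was in 5 of the 15 (PER2, CRY1, CRY2, CLOCK and NR1D1) and in 5.34% of all. The D-box core was in 3 of the 15 (PER1, PER3 and NR1D2) and in 3.3% of all, the receptor element core in 4 of the 15 (of PER1, CRY2 and BMAL1) and in 13.8%, and the cyclic AMP response element TGACGTCA in 0 of the 15 and in 1.85% of all. These are matches of letters in a short window and not measured binding sites.

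Gefitinib lowered CRY1, CLOCK, PER3 and NR1D1 and raised DBP and PER1 in both lines, and lowered BMAL1 in PC9 (BMAL1 was not past the threshold in PC9M2). In PC9, 7 of the 9 tested members passed an adjusted p of 0.05 (limma, paired by time point), 2 higher and 5 lower, where 72.3% of all tested genes did. In PC9M2, 6 of 9 passed, 2 higher and 4 lower, against 66.7% of all genes. The median size of the difference was 0.74 for the members and 0.44 for all genes in PC9, and 0.45 against 0.32 in PC9M2, on the log2 scale. The share of members called was thus near that of all genes, and what follows concerns the size, direction and timing of single members.

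**Figure D1:**
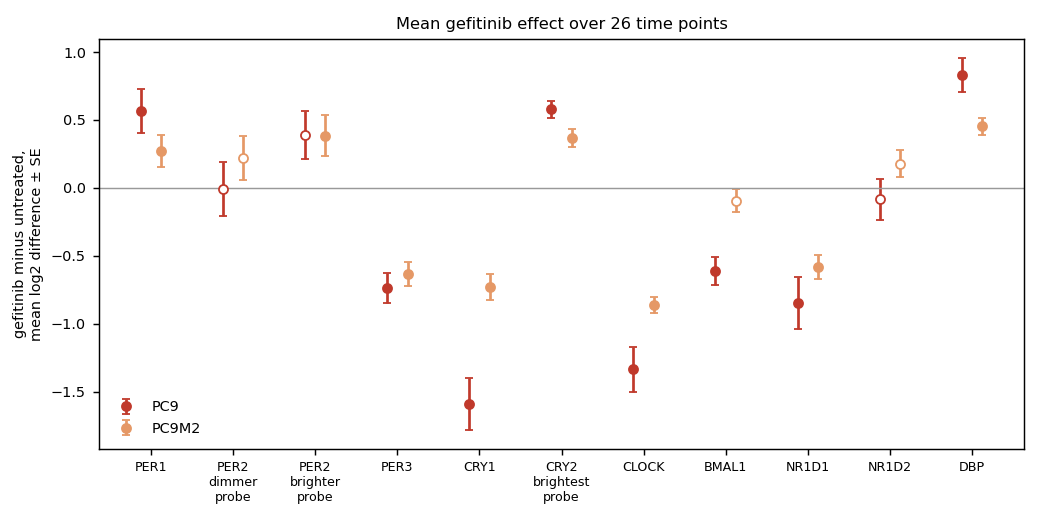
Mean log2 difference between the gefitinib and untreated courses of the same line, with its standard error over 26 time points, for each clock gene in PC9 and PC9M2 (CRY2 and the brighter PER2 probe from the fit of single probes). Open symbols were not past the threshold, and CRY1 in PC9 lies farthest from 0 at -1.59.

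CRY1, a repressor of the CLOCK and BMAL1 dimer, had the largest fall of the members. In untreated PC9 its log2 level had a lowest value of 6.90, a median of 7.90 and a highest of 8.48, and with gefitinib these were 3.95, 6.32 and 8.17. The level was lower with gefitinib at all 26 time points, although the ranges of the courses overlapped, because the gefitinib course still stood at 8.17 at 1 h. The mean difference was -1.59 ± 0.19 (SE, n = 26 time points), a 3.02-fold fall, with a limma adjusted p of 2.14e-08. The lowest value, at 16 h, came from an array that stood apart, and without such time points the difference was -1.36. In PC9M2 the untreated course ran from 6.15 to 8.57 with a median of 6.85 and the gefitinib course from 5.36 to 6.84 with a median of 6.04, so that the gefitinib course lay below the untreated median throughout. CRY1 fell there by 0.73 ± 0.10 (SE, n = 26 time points; adjusted p 1.33e-07), 1.66-fold, at 24 of 26 time points. The other CRY1 probe gave -1.28 in PC9 and -0.61 in PC9M2, lower at 26 of 26 time points in both.

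CRY2, the paralogue of CRY1, moved the other way. Its brightest probe had a lowest level of 9.44, a median of 10.07 and a highest of 10.96 in untreated PC9, and of 10.19, 10.69 and 11.41 with gefitinib. The gefitinib course was higher at 25 of 26 time points, by 0.58 ± 0.06 on average (SE, n = 26 time points; adjusted p 3.28e-09 over all probes, of which 68.0% were called). In PC9M2 it was higher at 21 of 26 time points, by 0.36 ± 0.07 (adjusted p 2.04e-05, with 63.7% of all probes called). A dimmer CRY2 probe gave 0.53 in PC9 and 0.24 in PC9M2, both past the threshold, so that CRY1 and CRY2 stood in opposite directions on each probe detected well enough to be tested.

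The 3 PER genes, partners of the CRY proteins in repression, did not move as a group. PER3 ran from 6.63 to 8.29 with a median of 7.46 in untreated PC9 and from 6.11 to 7.31 with a median of 6.74 with gefitinib, and fell by 0.74 ± 0.11 (adjusted p 6.81e-07), lower at 25 of 26 time points. In PC9M2 its medians were 7.18 untreated and 6.50 with gefitinib, and it fell by 0.64 ± 0.09 (adjusted p 3.92e-07), also at 25 of 26. Of the other PER3 probes, one was lower by 0.42 in PC9 and past the threshold, and the other stood at -0.23 and was not (adjusted p 0.142), while both fell in PC9M2. PER1 rose in PC9, from a median of 8.42 to 8.98, by 0.57 ± 0.16 (SE, n = 26; adjusted p 0.00261), higher at 19 of 26 time points, and in PC9M2 by 0.27 ± 0.12 (adjusted p 0.0462), higher at 16 of 26. The PC9M2 call was lost without 0.5 h (adjusted p 0.0674), and that in PC9 when the variance was inflated for the correlation between neighbouring hours (adjusted p 0.24). PER2 had a difference of -0.01 in PC9 and 0.22 in PC9M2, both short of the threshold. Its brighter probe stood at 0.39 in PC9 (adjusted p 0.0526) and rose by 0.38 in PC9M2 (adjusted p 0.0282), higher at 18 and 19 of 26 time points.

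The activators CLOCK and BMAL1 both fell in PC9. CLOCK had a lowest level of 7.21, a median of 8.02 and a highest of 9.35 in the untreated course and of 4.66, 6.95 and 7.67 with gefitinib, and it was lower with gefitinib at every time point. The fall was 1.34 ± 0.17 (SE, n = 26 time points; adjusted p 5.31e-08), 2.53-fold, and 1.25 without the time points at which an array stood apart. BMAL1 ran from 9.00 to 10.29 with a median of 9.38 untreated and from 8.04 to 9.30 with a median of 8.78 with gefitinib, a fall of 0.61 ± 0.11 (adjusted p 7.79e-06) seen at 23 of 26 time points. In PC9M2, CLOCK fell by 0.86 ± 0.06 (adjusted p 1.04e-12), again at 26 of 26, from a median of 7.62 to 6.79. The BMAL1 medians there were 9.15 and 9.22, and its difference of -0.09 ± 0.08 did not pass (adjusted p 0.336).

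Of the direct targets of the dimer, DBP rose and NR1D1 fell. DBP ran from 8.24 to 10.35 with a median of 9.30 in untreated PC9 and from 9.12 to 10.88 with a median of 10.11 with gefitinib, a rise of 0.83 ± 0.12 (SE, n = 26 time points; adjusted p 9.62e-07), 1.78-fold, at 23 of 26 time points. In PC9M2 it rose by 0.45 ± 0.06 (adjusted p 4.14e-07) at 25 of 26, from a median of 9.18 to 9.58. NR1D1 fell by 0.85 ± 0.19 in PC9 (adjusted p 0.000317), but at only 17 of 26 time points, and by 0.58 ± 0.09 in PC9M2 (adjusted p 1.56e-06), at 24 of 26. Both of these mean falls lost their call when the variance was inflated for the correlation between neighbouring hours (adjusted p 0.282 in PC9 and 0.0767 in PC9M2). The other NR1D1 probe gave -1.02 in PC9 and -0.60 in PC9M2. NR1D2 differed by -0.08 in PC9 and 0.18 in PC9M2 and did not pass in either line.

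**Figure D2:**
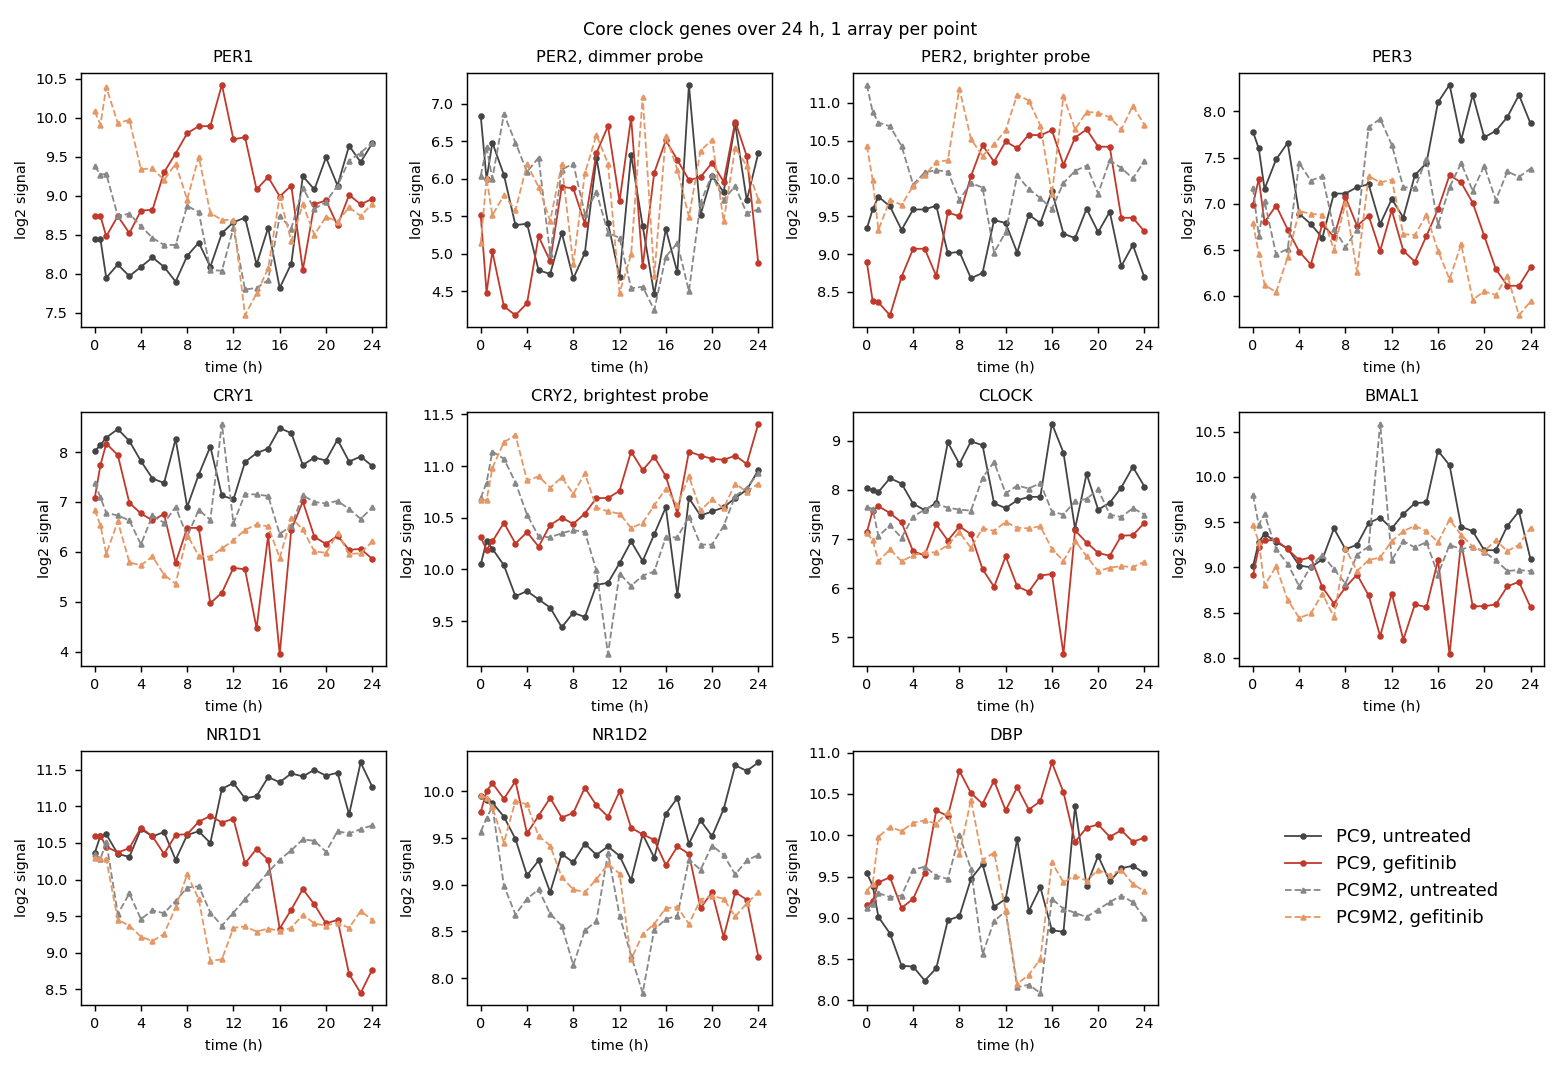
Log2 level of each clock gene by hour after time 0 in untreated and gefitinib-treated PC9 and PC9M2, 1 array per point. NR1D1 shows the courses of PC9 parting after the middle of the day, with a mean of 11.25 untreated and 8.64 with gefitinib over 22 to 24 h.

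Several members changed sides during the course, so that their means hid most of the response. Over 0 to 8 h the mean difference of NR1D1 in PC9 was 0.02, over 9 to 16 h -0.65 and over 17 to 24 h -2.14. Its level over 0 to 2 h averaged 10.49 untreated and 10.51 with gefitinib, and over 22 to 24 h 11.25 untreated and 8.64 with gefitinib, the hours in which the lowest gefitinib value (8.45, at 23 h) and the highest untreated value (11.60, at 23 h) fell. The late minus early change was -2.16 ± 0.23 (adjusted p 2.32e-08), a 4.47-fold shift. NR1D2 went from 0.38 early to -1.05 late, a change of -1.43 ± 0.22 (adjusted p 3.68e-06), and PER1 from 0.80 early through 1.26 in the middle to -0.42 late, a change of -1.22 ± 0.24 (adjusted p 0.000142). PER3 (-0.92) and BMAL1 (-0.62) also grew more negative, which made 5 of 9 members with a changed effect in PC9, all downward, where 49.4% of all genes were called. Without the time points at which an array stood apart, CRY1 joined them (-0.94, adjusted p 0.00734), 6 of 9 in all. The other CRY1 probe changed by -0.78 with all time points.

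In PC9M2, 7 of 9 members had an effect that changed from early to late, 5 downward and 2 upward, against 39.5% of all genes. From 11 h on, the NR1D1 level on its most variable probe was lower in both courses with gefitinib than in both courses without it at every time point, in PC9M2 as in PC9. On the other NR1D1 probe the gefitinib course of PC9M2 was higher than the untreated one by 0.40 at 11 h, where the untreated array stood apart. In PC9M2 it averaged 10.17 untreated and 10.08 with gefitinib over 0 to 2 h, and 10.69 and 9.45 over 22 to 24 h, and its difference changed by -0.98 ± 0.11 (adjusted p 4.69e-08). PER1 went from 0.84 early to -0.44 late (a change of -1.29, adjusted p 3.78e-07), and NR1D2 from 0.59 to -0.41 (adjusted p 3.91e-06). PER3 changed by -0.89 and CLOCK by -0.45. The genes that changed upward were PER2, from -0.49 to 0.51 (1.00, adjusted p 0.0104), and BMAL1, from -0.33 to 0.21 (0.54, adjusted p 0.0192). The brighter PER2 probe changed by 1.47 in PC9 (adjusted p 8.83e-06, with 44.2% of all probes called) and by 1.07 in PC9M2 (adjusted p 0.00268, with 34.4% called), from -0.61 early to 0.86 late in PC9. Each of the late minus early calls named for the 9 tested members in these lines was kept with the variance inflated for the correlation between neighbouring hours. For these contrasts the share of all genes in that setting was not taken.

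**Figure D3:**
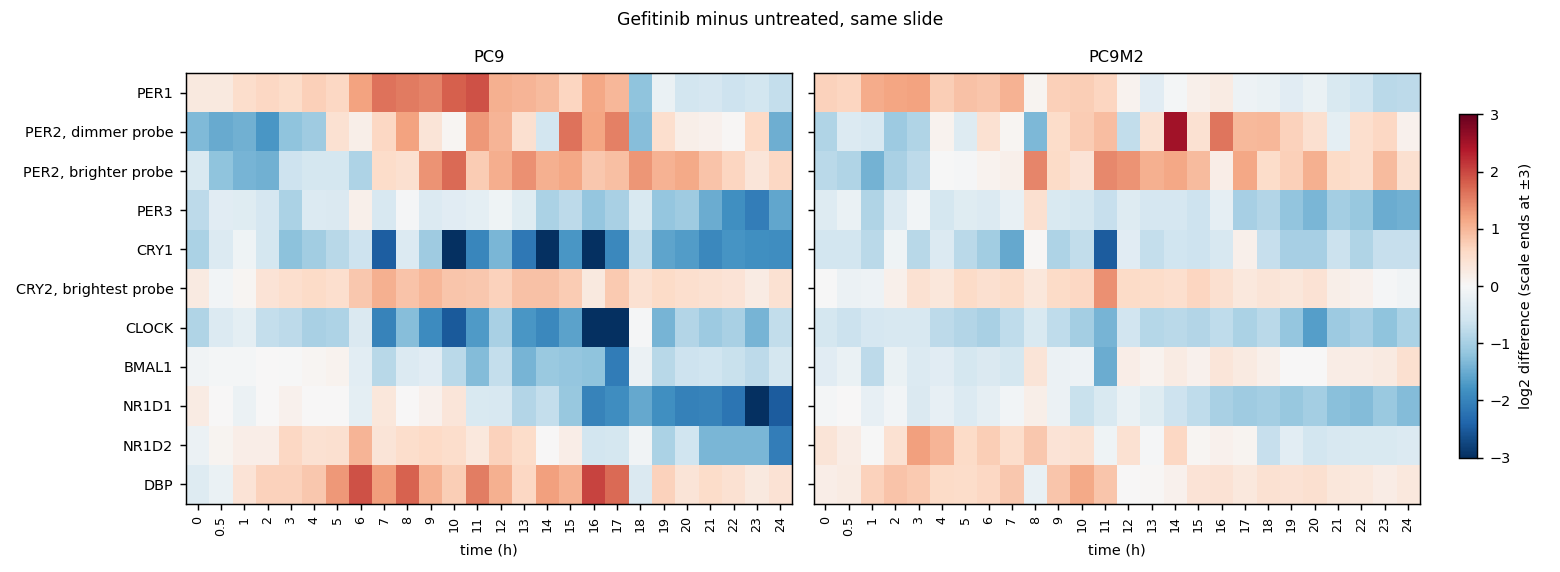
Heat map of the log2 difference, gefitinib minus untreated, by hour after time 0 for each clock gene in each line, on a scale from -3 to 3. CRY1 and CLOCK stayed below 0 in PC9 from the start, whereas NR1D1 reached -3.16 at 23 h from differences near 0 in the early hours.

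The same comparison with EGF in both courses gave 7 of 9 members in PC9 (78.9% of all genes) and 6 of 9 in PC9M2 (74.5% of all genes). These contrasts share no array with those without EGF, but at each time point the arrays of a line shared a slide and a scan day. PER1 rose by 0.51 in PC9 (adjusted p 0.00801) and stood at 0.21 in PC9M2, where it was not called (adjusted p 0.198). CRY1 fell by 1.40 in PC9 and 0.83 in PC9M2, CLOCK by 1.24 and 0.90, PER3 by 0.64 and 0.79, and NR1D1 by 1.06 and 0.85, while DBP rose by 0.82 and 0.61. BMAL1 fell by 0.61 in PC9 and differed by -0.20 in PC9M2 (adjusted p 0.0564). PER2 rose by 0.67 in PC9M2 in the presence of EGF (adjusted p 0.000463), higher at 20 of 26 time points. Without 0.5 h, the PC9M2 count was 7, as BMAL1 was then called (-0.21, adjusted p 0.0496). With the variance inflated for autocorrelation the PC9 count was 3, CRY1, CLOCK and BMAL1, and in PC9M2 NR1D1 was lost (adjusted p 0.0798). For these contrasts the share of all genes in that setting was not taken, so the count is not a result about the members.

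A 24-h wave was then fitted to each course, giving an amplitude (the height of the fitted curve above its mean, in log2 units) and the hour of its peak. The courses cover 1 cycle, so a fitted wave is not shown to repeat. In untreated PC9, 7 of 9 members had a 24-h component past an adjusted p of 0.05, against 56.9% of all genes, and their median amplitude was 0.42 against 0.33 for all genes. The fitted peaks lay late, at 17.2 ± 0.53 h for NR1D1 (amplitude 0.53), 17.7 h for DBP, 20.0 ± 0.53 h for PER3 (0.57), 20.0 h for PER1 (0.51), 21.6 h for NR1D2 (0.40) and 21.8 h for PER2 (0.57), with BMAL1 earlier at 15.5 h (0.32). CRY1 and CLOCK were not called. The measured levels of PER1 (9.67) and NR1D2 (10.31) were highest at 24 h, the last time point, and thus after their fitted peaks. In untreated PC9M2, 6 of 9 were called against 53.7% of all genes, with peaks at 20.4 h for NR1D1 (0.55), 23.1 h for NR1D2, 23.3 h for PER1 (0.59), 2.81 h for PER2, 3.74 h for DBP and 13.2 h for CLOCK. With scan day as a random block, CLOCK and DBP lost their calls in untreated PC9M2 (adjusted p 0.0781 and 0.126), where 17.5% of all genes were called. DBP and PER2 lost theirs in untreated PC9 (adjusted p 0.165 and 0.169), where 29.5% of all genes were called. The bright CRY2 probe peaked at 19.8 h in PC9 and at 0.58 h in PC9M2.

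With gefitinib, 8 of 9 members had a 24-h component in PC9 (64.8% of all genes) and 6 of 9 in PC9M2 (54.0%). In PC9 the fitted peak of NR1D1 stood at 8.27 ± 0.66 h (amplitude 0.75), that of NR1D2 at 7.67 h (0.51) and that of PER1 at 10.4 ± 0.62 h (0.59). DBP peaked at 13.3 h and PER2 at 15.5 h, and CRY1 (0.90), BMAL1 (0.27) and CLOCK (0.65) had their highest fitted value at 1.61, 2.35 and 2.45 h. The measured levels of both CRY1 and CLOCK were highest at 1 h, and lowest at 16 h for CRY1 and at 17 h for CLOCK, which stood at 7.33 again at 24 h. NR1D2 had no measured peak near its fitted one. Its level was highest at 3 h (10.11), stood at 9.72 at 7 h and was lowest at 24 h (8.23). The bright PER2 probe had the largest amplitude among these, 1.04 with a peak at 15.0 ± 0.36 h (adjusted p 2.52e-07), where its untreated course gave 0.09 and was not called. In PC9M2 with gefitinib, PER1 peaked at 2.89 h (0.77), NR1D2 at 3.45 h (0.54), DBP at 4.35 h (0.54), PER3 at 9.74 h (0.46), CLOCK at 11.2 h (0.30) and BMAL1 at 17.4 h (0.36), and the NR1D1 fit was no longer called (0.23, adjusted p 0.0991). With scan day as a random block, PER3 and CLOCK lost their calls in this course (adjusted p 0.124 and 0.113). The share of all genes in that setting was not taken here.

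**Figure D4:**
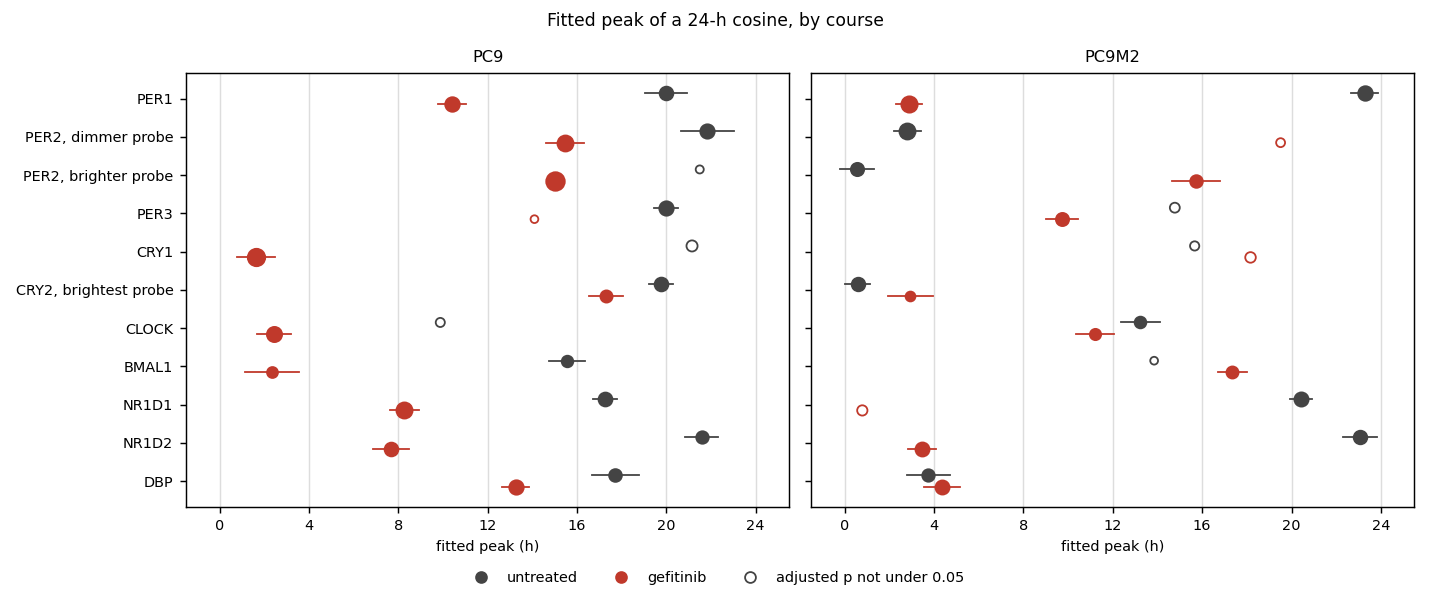
Hour of the fitted 24-h peak, with its standard error, for each clock gene in the untreated and gefitinib courses of PC9 and PC9M2; larger symbols stand for larger amplitudes, and open symbols were not past the threshold. In PC9 the fitted peaks of PER1, NR1D1 and NR1D2 were at 20.0, 17.2 and 21.6 h untreated and at 10.4, 8.27 and 7.67 h with gefitinib. The measured NR1D2 level was highest at 24 h untreated and at 3 h with gefitinib.

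Of the 6 members called in both PC9 courses, 5 had peaks more than 6 h apart, where 20.5% of the 5489 genes called in both did, and the median distance was 9.29 h for the members and 2.19 h for all genes. PER2 counts here by its more variable probe, since the brighter one was not called in the untreated course. These are distances between fitted waves. For NR1D2 the highest measured level was at 24 h untreated and at 3 h with gefitinib. By the shorter way round the 24-h circle, where a negative sign is earlier, the shift was -9.61 ± 1.12 h for PER1, -8.98 ± 0.85 h for NR1D1, -6.37 h for PER2, -4.47 h for DBP, 10.8 h for BMAL1 and 10.1 h for NR1D2. The ± joins the standard errors of both fitted peaks as if the courses were independent, though they shared slides and scan days. At such distances earlier and later are not well told apart. In PC9M2, 0 of 4 members called in both courses moved by over 6 h, against 10.0% of 4632 genes, with median distances of 2.82 and 1.84 h. With a linear trend in the fit, the PC9 peaks of NR1D1 were 16.9 and 11.8 h, a smaller shift, those of NR1D2 22.4 and 12.3 h, and those of PER1 0.53 and 9.43 h, so that the shorter way for PER1 turned from earlier to later. With scan day as a random block, the calls fell to 3 of 9 in the PC9 gefitinib course, where PER1, NR1D1 and DBP were still called. For that course the share of all genes in this setting was not taken. DBP and PER2 lost their calls in the untreated PC9 course, so that PER1 and NR1D1 alone were then called in both courses. In PC9M2, PER1 and NR1D2 alone were then called in both.

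The 24-h component was also tested in the paired difference of the courses, which share a slide at each time point. In PC9 it was past the threshold for all 9 tested members, against 42.4% of all genes, with a median amplitude of 0.83 against 0.34. PER1 had an amplitude of 1.05 ± 0.12 with the highest difference at 9.29 h (adjusted p 9.73e-06), and that of NR1D1 was 1.18 ± 0.18 at 7.04 h (adjusted p 0.000156). PER2 followed with 0.98 at 13.1 h, NR1D2 with 0.88 at 8.50 h and CRY1 with 0.83 at 2.84 h, and the amplitudes of CLOCK, BMAL1, PER3 and DBP were between 0.57 and 0.72. Without the time points at which an array stood apart the count was 8, as CRY1 was lost (adjusted p 0.102), with a linear trend it was 7 against 16.2% of all genes, and with a period of 20 h it was 2 (PER1 and BMAL1) against 1.94% of all genes. In PC9M2, 5 of 9 were called against 33.7% of all genes, PER2 with 0.80 at 15.4 h, PER1 with 0.64 at 6.13 h, NR1D2 with 0.57 at 7.00 h, NR1D1 with 0.50 at 6.82 h and PER3 with 0.45 at 8.02 h. With a linear trend 1 was called in PC9M2, PER3, against 15% of all genes, and with a period of 20 h 0 against 4.6%. Without the time points at which an array stood apart, PER2 lost its call there (adjusted p 0.109) and BMAL1 gained one (0.31, adjusted p 0.0469). The CRY2 probe was called in both lines, with amplitudes of 0.31 in PC9 (36.7% of all probes called) and 0.35 in PC9M2 (27.9%).

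At 13 to 15 h the 4 PC9M2 courses dipped together in some members. DBP stood lower than in the neighbouring hours by 0.85 untreated, 1.20 with gefitinib, 0.96 with EGF and 1.04 with both, and PER1 by 0.67 to 0.98. The untreated DBP levels of PC9M2 at these hours (8.16, 8.19 and 8.09) were the lowest of that course and are part of its 24-h fit above. The same holds for PER1 untreated (7.8, 7.82 and 7.92) and with gefitinib (7.47, 7.75 and 8.07). NR1D2, PER2 and PER3 were also lower in all 4 courses, though not by 0.5 in each, and these hours are part of their fits too. All 4 courses of PC9M2 were lower in 39.7% of genes. All 4 courses were lower by at least 0.5 in 9.54% of genes in PC9M2 and in 1.21% in PC9. In PC9M2 these 3 hours were scanned on 1 day, and the part of that day in the dip was not tested.

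EGF alone moved few members. Its courses were set against the same untreated arrays as those of gefitinib. In PC9, 2 of 9 passed, both higher, against 25.6% of all genes. NR1D1 was higher by 0.27 ± 0.07 (SE, n = 26 time points; adjusted p 0.00304) at 18 of 26 time points, with a highest level of 12.36 at 21 h, and CRY1 by 0.19 ± 0.06 (adjusted p 0.017) at 20 of 26. In PC9M2 only NR1D1 passed of 9, against 9.12% of all genes, at 0.23 ± 0.05 (adjusted p 0.000961) and 22 of 26 time points. None of the NR1D1 and CRY1 calls was kept when the courses were compared unpaired. Over 0.5 to 4 h, 0 of 9 members passed in PC9 (limma, 0.437% of all genes, 1 member at an unadjusted p under 0.05) and 0 of 9 in PC9M2 (0.0377% of all genes, 1 unadjusted). The methods' t-test called 0 in both windows. PER1 differed by 0.09 ± 0.12 in those hours in PC9 and by -0.04 ± 0.12 in PC9M2, over 5 time points of which 0.5 h holds the arrays that go against their labels in PC9M2.

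With EGF, the 24-h fit called 8 of 9 members in PC9 (65.1% of all genes) and 6 of 9 in PC9M2 (66.4%), and with both agents 5 of 9 (61.1%) and 6 of 9 (59.7%). Without the time points at which an array stood apart, CRY1 lost its call with EGF in PC9 and with both in PC9M2, and DBP with EGF in PC9M2, while without 0.5 h PER3 gained one with EGF and CLOCK with both in PC9M2. Between the untreated and EGF courses the median distance of the peaks was 0.78 h over 7 members in PC9 (0.49 h over all genes) and 1.23 h over 6 members in PC9M2 (0.60 h over all genes), where DBP moved from 3.74 to 23.9 h. Between gefitinib with and without EGF it was 0.27 h in PC9 (0.47 h over all genes) and 0.38 h in PC9M2 (0.36 h over all genes), over 5 members each. The amplitude of NR1D1 in PC9 was 0.90 ± 0.11 with EGF and 0.53 ± 0.08 without, and the paired difference held a 24-h component of 0.39 at 18.4 h (adjusted p 0.0113), the 1 member called of 9, against 0.535% of all genes. That call was lost without the time points at which an array stood apart (adjusted p 0.0597). In PC9M2, 0 of 9 had a 24-h component in the EGF difference by limma (0.256% of all genes, 4 members unadjusted).

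**Figure D5:**
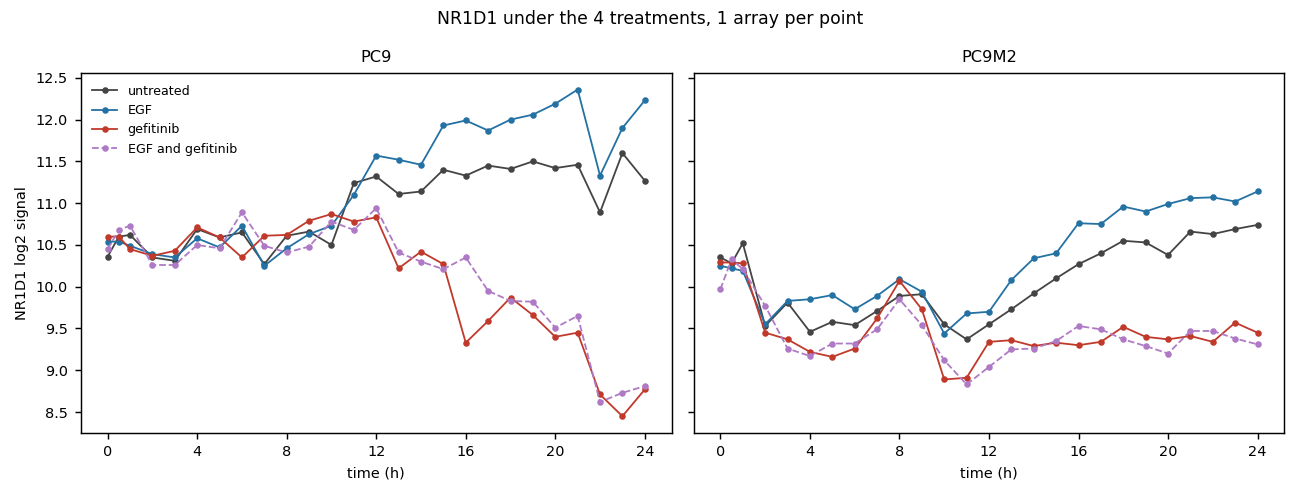
Log2 level of NR1D1 (its most variable probe) by hour after time 0 in the 4 courses of PC9 and of PC9M2, 1 array per point. From 11 h on, both courses with gefitinib lie below both courses without it at every time point in each line, and over 22 to 24 h the PC9 means are 11.82 with EGF, 11.25 untreated, 8.72 with both and 8.64 with gefitinib.

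In the presence of gefitinib, EGF changed 0 of 9 members in PC9 (limma, 0.0452% of all genes, 2 members at an unadjusted p under 0.05) and 0 of 9 in PC9M2 (3.23% of all genes, 2 unadjusted), and the methods' t-test also called 0 in each. Without 0.5 h the PC9M2 count was 2, BMAL1 lower by 0.11 and NR1D2 higher by 0.11. For NR1D1 the 8 courses ordered by mean level were PC9 with EGF (11.22), PC9 untreated (10.95), PC9M2 with EGF (10.30), PC9 with both (10.16), PC9 with gefitinib (10.10), PC9M2 untreated (10.06), PC9M2 with gefitinib (9.48) and PC9M2 with both (9.45). Of the neighbours in this order that were compared, PC9 with both and with gefitinib (0.06, adjusted p 0.661) and PC9M2 with gefitinib and with both (0.04 apart, adjusted p 0.582) did not differ beyond their spread.

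Between the lines, 5 of 9 members passed the test in the untreated courses, all lower in PC9M2 than in PC9, against 68.1% of all genes. CRY1 was lower by 1.00 ± 0.13 (SE, n = 26 time points; adjusted p 6.97e-08) at 25 of 26 time points, NR1D1 by 0.89 ± 0.09 (adjusted p 9.55e-10) and NR1D2 by 0.67 ± 0.09 (adjusted p 1.02e-07), both at 26 of 26. The median NR1D1 level was 11.00 in PC9 and 10.01 in PC9M2. CLOCK was lower by 0.43 and PER3 by 0.30 (adjusted p 0.0415), and the PER3 call was lost without 0.5 h (adjusted p 0.0687). Without the time points at which an array stood apart the count was 6, as PER1 was then called and higher in PC9M2 (0.28, adjusted p 0.026), and without 0.5 h it was 4. The PER2 probes disagreed, with -0.03 on the more variable one and 0.76 ± 0.11 on the brighter one (adjusted p 4.01e-07), which ran from 8.68 to 9.83 in PC9 and from 9.02 to 11.24 in PC9M2. Across treatments, 4 of 9 members passed between the lines with gefitinib (64.9% of all genes), 6 with EGF (69.8%) and 5 with both (67.7%). With gefitinib, NR1D1 (-0.62), NR1D2 (-0.40) and DBP (-0.47) were lower in PC9M2 and BMAL1 higher by 0.33, of which DBP and BMAL1 lost their calls without the time points at which an array stood apart (adjusted p 0.16 and 0.0797) while CRY1 gained one (-0.41). With the variance inflated for autocorrelation 0 of 9 were called between the lines with gefitinib and 0 with both (adjusted p 0.242 for NR1D1 and 0.0961 for NR1D2 with gefitinib). The share of all genes in that setting was not taken, so these counts are not a result about the members. Without the time points at which an array stood apart, PER1 was also called with EGF (0.28), and with both DBP was lost (adjusted p 0.11) and PER2 gained (0.43). Without 0.5 h the PER3 call with EGF was lost (adjusted p 0.0877).

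The shape of the courses differed between the lines too. The paired line difference held a 24-h component for 5 of 9 members untreated (46.3% of all genes) and for 9 of 9 with gefitinib (65.0%), with median amplitudes of 0.44 and 0.86 for the members and 0.40 and 0.48 for all genes. Of the 9 with gefitinib, PER3 was lost without the time points at which an array stood apart (adjusted p 0.0678) and PER2 without 0.5 h (adjusted p 0.0725). Under gefitinib, 5 members were called in both lines, and 4 of these peaked over 6 h apart, PER1 (-7.51 h in PC9M2 by the shorter way), DBP (-8.90 h), CLOCK (8.75 h) and BMAL1 (-8.99 h), against 52.0% of all genes called in both. The median distance was 8.75 h for the members and 6.26 h for all genes. In the untreated courses it was 3.28 h over 5 members and 3.21 h over all genes. Line and scan day cannot be told apart in any of these values.

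The effect of gefitinib itself differed between the lines for 4 of 9 members, against 34.0% of all genes, where the difference was taken as the effect in PC9M2 minus that in PC9. The fall of CRY1 was smaller in PC9M2 by 0.86 ± 0.20 (SE, n = 26 time points; adjusted p 0.00132), at 22 of 26 time points, and the other CRY1 probe gave 0.67 (adjusted p 2.28e-05). BMAL1 differed by 0.52 ± 0.15 (adjusted p 0.00706), CLOCK by 0.47 ± 0.17 (adjusted p 0.0292) and DBP by -0.38 ± 0.14 (adjusted p 0.0302), so that each of the 4 had the smaller mean difference in PC9M2. With the variance inflated for autocorrelation 1 of the 4 was still called, CRY1 (adjusted p 0.265 for BMAL1, 0.133 for CLOCK and 0.131 for DBP), and with unpaired courses 2, CRY1 and BMAL1. For this contrast the share of all genes in those settings was not taken. CLOCK and DBP lost their calls without the time points at which an array stood apart (adjusted p 0.0867 and 0.0866), while NR1D2 gained one (0.34, adjusted p 0.0209), which left 3 of 9. The bright CRY2 probe differed by -0.21 ± 0.06 (adjusted p 0.00677).

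Of 24 further genes that act in or beside the clock, 23 had a probe and 20 were tested. Gefitinib changed 16 of the 20 in each line, 5 higher and 11 lower in both PC9 and PC9M2, where 72.3% and 66.7% of all genes were called. The lower ones included BMAL2, a paralogue of BMAL1, at -1.72 in PC9 and -1.42 in PC9M2, NPAS2, a paralogue of CLOCK, at -1.07 and -0.48, and RORA, a nuclear receptor that activates BMAL1, at -1.11 and -0.81. BMAL2 had a median level of 9.97 untreated and 8.26 with gefitinib in PC9. CIART, a repressor of the dimer, stood at -0.96 and -1.13, NAMPT, an enzyme of NAD synthesis, at -1.14 and -0.76, and TIPIN, a replication fork protein that binds TIMELESS, at -1.23 and -0.94. CSNK1E, a kinase of the PER proteins, fell by 0.76 in PC9 and was not called in PC9M2. Among the higher ones were the cold-inducible RNA-binding protein CIRBP (0.98 and 0.58), BTRC, which directs PER proteins to degradation (0.69 and 0.27), and BHLHE41, a repressor that competes for E-boxes (0.39 and 0.84).

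The effect of gefitinib differed between the lines for 12 of the 20 genes, against 34.0% of all genes. EGF changed 8 of the 20 in PC9, 6 higher and 2 lower (25.6% of all genes), and 2 in PC9M2 (9.12% of all genes), BMAL2 (0.44) and NPAS2 (0.17), both of which were also higher in PC9 (0.40 and 0.18). The fitted peak of CIART, which shares its repressor role with PER and CRY, was at 19.1 h in untreated PC9 and at 10.2 h with gefitinib, and at 5.99 h in PC9M2 with gefitinib.

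Over all arrays, after the mean of each course was subtracted, the members fell into loose sets, given as a description since arrays of a course share their hours and scan days. PER1 went with DBP (Pearson r = 0.68), NR1D2 (0.63) and NR1D1 (0.53), NR1D1 with NR1D2 (0.58), and CRY1 with BMAL1 (0.56). PER1 and BMAL1 (-0.40) and CRY1 and DBP (-0.39) ran opposite to each other. Among pairs of every 13th tested gene, the quartiles of r were -0.18 and 0.19. Probes of the same gene reached 0.76 for NR1D1, 0.43 for CRY1 and 0.38 for PER2, so that PER2 in particular depends on the probe. Outside the members, the gene most like each in this measure was PRSS8 for PER1 (0.78), ZBED1 for PER2 (0.71), UBTD2 for PER3 (0.66), ABCE1 for CRY1 (0.81), LTN1 for CLOCK (0.73), POC1B for BMAL1 (0.65), TSACC for NR1D1 (0.82), FGD6 for NR1D2 (0.76) and YPEL3 for DBP (0.82).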

How the data were processed

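RNA of PC9 and PC9M2 was measured on 1-colour Agilent 44K arrays, 1 array for each of 26 time points in 8 courses. The authors deposited the scanner output of each array, whose intensities were background-subtracted by Feature Extraction (version 10.5.1.1 per the file headers), and a normalized value table. That table matched a quantile normalization of all features, control spots included, with a median relative difference of 1.53e-07. The values tested here were normalized without control spots. With the deposited values in their place, none of the 279 results changed its call. The annotation of the probes is on hg18.

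Processed intensities were quantile-normalized over all arrays, values under 1 were set to 1, and log2 was taken; outlier spots (0.0792% of tested values) were left out, so such a point is missing from a fit. Probes were named through RefSeq accessions, and the most variable probe stood for its gene. Genes entered the tests if 13 or more of the 26 arrays in any course put them well above background. limma 3.58.1 in R 4.3.3 tested the differences between courses, paired by time point and slide, and a 24-h cosine in each course or difference, with Benjamini-Hochberg adjustment over 13276 genes at 0.05. Early, middle and late windows were 0 to 8, 9 to 16 and 17 to 24 h. With 1 array per point, the number of arrays limits the precision. In simulated data (11604 genes), both courses were drawn around the untreated PC9 means with independent noise. Added mean changes of 2, 1, 0.5 and 0.25 on the log2 scale were recovered in 100%, 96%, 56% and 14% of cases. The measured gefitinib differences of PC9 were correlated between neighbouring time points (median 0.29 for all genes and 0.50 for the members). The simulation left this out, so its rates do not carry over to these data.

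Alternatives were the normalization, background (normexp on the median signals, offset 50), floor, filter, probe, pairing, test, period, trend, scan day as random block, time points used and variance inflated for autocorrelation. Each probe by itself, leaving out time points with an array standing apart and leaving out 0.5 h were added after seeing the data. The rule for named genes was all 10 members, those of a fixed list of 24 other clock-related genes, and the genes most correlated with each member. The members and lists were chosen with earlier results of these data known. Some of the other clock-related genes are not reported here by name.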

Additional observations from a re-analysis of the deposited data

Results flagged for a closer look

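The effect of gefitinib (mean log2 difference from the untreated course) differed between PC9 and PC9M2 for 4 clock genes, by a test of the difference itself over 26 time points (limma). CRY1 was lower by 1.59 in PC9 and by 0.73 in PC9M2, a difference of 0.86 ± 0.20 (SE, n = 26; adjusted p 0.00132). CLOCK was lower by 1.34 and 0.86, a difference of 0.47 ± 0.17 (adjusted p 0.0292). BMAL1 stood at -0.61 in PC9 and at -0.09 in PC9M2, where it was not past the threshold, a difference of 0.52 ± 0.15 (adjusted p 0.00706). DBP was higher by 0.83 and 0.45, a difference of -0.38 ± 0.14 (adjusted p 0.0302). With the variance inflated for autocorrelation CRY1 alone of the 4 was still called, and with unpaired courses CRY1 and BMAL1. For this contrast the share of all genes in those settings was not taken. Scan day and line cannot be told apart in these values.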

How the results depend on the processing

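Counts are of the 9 tested members past the threshold. A count without a share of all genes beside it is not a result about the members. Taking every 3rd hour (9 time points) left 0 in all 8 courses for the 24-h component (where 0 of all 13276 genes were called in the untreated courses and in the gefitinib differences), 0 for that of the difference by EGF in PC9, by gefitinib in either line and by line untreated or with gefitinib, 0 for EGF in either line and for the difference of the gefitinib effect between the lines, and 3, 1, 1 and 3 for the line difference with EGF, both, gefitinib and no treatment, 1 for early EGF in PC9 and 3 for late minus early in PC9. With scan day as a random block the 24-h component was called for 5 members with EGF, 3 with both and 3 with gefitinib in PC9, and 3 with both in PC9M2. In the untreated courses this setting called 29.5% of all genes in PC9 and 17.5% in PC9M2, where the main fit called 56.9% and 53.7%. With the variance inflated for autocorrelation the 24-h counts were 4 (EGF) and 2 (both) in PC9 and 3 for the gefitinib difference in PC9M2, and the mean tests gave 1 and 0 for EGF in PC9 and PC9M2, 0 and 0 for the line with both and with gefitinib, 1 for the gefitinib effect between lines and 3 for gefitinib with EGF in PC9. The gefitinib difference of PC9M2 then held a 24-h component in 13.2% of all genes, against 33.7% in the main fit. A period of 20 h gave 3 with both and 4 with gefitinib in PC9, and 0, 2 and 0 for the differences by EGF in PC9 and by gefitinib in PC9 and PC9M2, and 28 h gave 1 by EGF in PC9M2. At 20 h the gefitinib differences were called in 1.94% of all genes in PC9 and in 4.6% in PC9M2. The mean of all probes and the probe with the highest mean gave 8 with both in PC9. A linear trend gave 0 by EGF in PC9, 3 by line untreated and 1 by gefitinib in PC9M2 (where 15% of all genes were called). Replacing outlying points by a spline gave 3 and 1 by EGF in PC9 and PC9M2 and 1 for the mean effect of EGF with gefitinib in PC9M2, normexp gave 1 by EGF in PC9M2, and leaving out the time points at which an array stood apart gave 0 by EGF in PC9. Unpaired courses gave 0 for EGF in either line and 2 for the gefitinib effect between lines. Without 0.5 h, and without 0, 0.5 and 1 h, EGF with gefitinib in PC9M2 gave 2. Reversals concerned the choice of probe. PER2 between the lines was 0.36 (mean of all probes) and 0.76 (brighter probe) untreated and 0.30 and 0.82 with EGF, PER2 with gefitinib in PC9 was 0.39 (adjusted p 0.0492) by the highest mean, a PER3 probe was 0.062 between the lines untreated and 0.060 with EGF, and the CRY1 24-h component with EGF in PC9M2 was 0.23 on its other probe, by itself or as the highest mean. The cause of these changes was not tested. Of 4781 values recomputed over 279 results, 4358 kept direction and side of the threshold, 291 lost a call, 121 gained one and 11 reversed. Levels of a gene at the dim end, such as PER2 on its more variable probe and CRY2, are limited by signal over background.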
